A study of Homo sapiens with 8 samples.

Results

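The zinc finger genes of human chromosome 19 were examined for replication origins. Members were taken by position and name: protein-coding genes of chromosome 19 in GENCODE release 44 (hg38) whose symbol is ZNF followed by digits, each with its gene body and the 2 kb upstream. Of 1476 protein-coding genes on the chromosome, 240 met this rule, and the other 1236 served for comparison. By this rule the other genes include zinc finger genes with other symbols, such as ZFP, ZSCAN, or ZNF with a final letter. An origin belonged to a ZNF gene if it overlapped this territory by at least 1 bp. In WT cells 126 of the 30197 origins of chromosomes 1 to 22, X, and Y did so, and the lists of the ORC1Δ, ORC2Δ, and ORC5Δ lines held 128, 142, and 150. Of the 126 WT origins, 21 also lay in the territory of another protein-coding gene.

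Origins had been mapped by SNS-seq, the sequencing of short nascent DNA strands that remain after size selection and lambda exonuclease digestion. The cells were 4 HCT116 lines, epithelial cells of a human colon cancer, and all 4 lacked p53. WT cells kept the origin recognition complex (ORC), and the ORC1Δ, ORC2Δ, and ORC5Δ lines (ORC1KO, ORC2KO, and ORC5KO in the labels) had been made with CRISPR–Cas9, with 1 line per gene. Each line had 2 replicates (8 samples), which the deposited tables and lists merge. The history of a line cannot be told apart from its deletion, and no test between lines was possible. All intervals below are at the 95% level, and they reflect only counting error or which origins and genes were sampled.

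C2H2 zinc finger proteins bind DNA through arrays of fingers, short units that each hold a zinc ion between cysteines and histidines. Many of those on chromosome 19 carry a KRAB domain, which recruits corepressors that silence transposable elements, and their genes stand in clusters that arose by repeated duplication. ORC binds DNA and, with CDC6 and CDT1, loads the MCM2–7 helicase that licenses an origin.

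The fingers are mostly encoded in a long last exon. A coding exon with at least 3 finger patterns was found in 236 ZNF genes, with a median GC content of 40.8%. Their most repeated 24-base word occurred 228 times in 35 ZNF genes, and the most repeated word unrelated to it occurred 147 times in 36. They are shown as the sequence that the family shares, with capitals for the codons of the paired cysteines in the first and of the linker between fingers in the second. Neither word was present in any origin of the ZNF genes in any of the 4 lists. Against them stands a linker from ZNF628, in a GC-rich finger exon and inside a WT origin (chr19:55481785-55481805, plus strand, hg38).
cysteine word: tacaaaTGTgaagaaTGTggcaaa
linker word: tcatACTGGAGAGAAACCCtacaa
ZNF628 linker: cacACGGGCGAGCGGCCCttc

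Fewer ZNF genes than other genes of the chromosome held an origin. In WT cells 70 of the 240 ZNF genes had at least 1 origin, or 29.2% (23.5–35.4%), against 850 of 1236 other genes, or 68.8% (66.1–71.3%). The shares of ZNF genes were 29.6% in ORC1Δ, 31.7% in ORC2Δ, and 33.3% in ORC5Δ, and those of other genes were 65.5%, 70.95%, and 72.5%. An origin was listed in all 4 lines for 51 ZNF genes, in at least 1 line for 99, and in no line for 141. Per length, WT cells had 16.2 origins per Mb of ZNF territory (13.5–19.3), which covers 7.78 Mb, and 64.3 per Mb in the territory of the other genes.

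ZNF genes were also AT-richer. Their median territory GC content was 43.8%, against 53.9% for the other genes. At 40% GC or more the shares within bins of GC content lay closer together. Under 40%, 2 of 33 ZNF genes (6.06%, 0.743–20.2%) and 2 of 9 other genes (22.2%, 2.81–60.01%) had a WT origin, too few for an order. Between 40% and 45% GC, 29 of 124 ZNF genes (23.4%) and 21 of 82 other genes (25.6%) had a WT origin. Between 45% and 50% GC the shares were 34.5% (22.5–48.1%) and 47.8% (39.9–55.8%), and their intervals overlapped. At 50–55% GC they were 70.0% of 10 ZNF genes and 73.3% of 495 others, and at 55% or more they were 80.0% of 15 and 79.1% of 489. The part of GC content in the lower share was not tested.

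**Figure D1:**
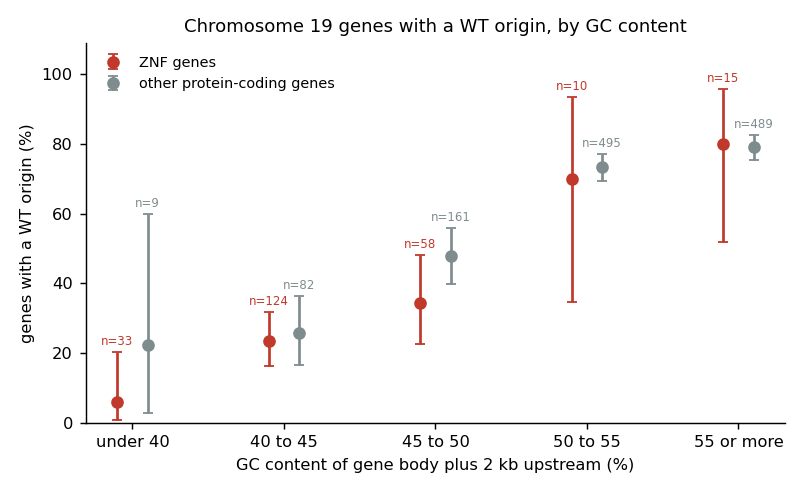
Share of ZNF genes (red) and other protein-coding genes of chromosome 19 (grey) with a WT origin, in %, by GC content of the gene territory, with exact binomial 95% intervals and n genes above each. The shares rise with GC content in both, and in every bin the intervals overlap.

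ZNF genes with an origin were also compared with those without. The 99 genes with an origin in any line had a median territory GC content of 45.3%, and the 141 without had 41.9%. A RefSeq promoter window of 250 bases before to 50 after the gene start (GRCh38.p14) was matched for 210 ZNF genes. Its observed over expected CpG had a median of 0.816 in the 88 matched genes with an origin and 0.714 in the 122 without. Its GC content had medians of 63.0% and 58.0%. For the other genes under 80% matched, so the comparison with them is void. The median number of finger patterns was 12 in both kinds of ZNF gene. Repeated sequence can hide reads, and the share of 50-base words found more than once on the chromosome was low in both, at 3.22% with an origin and 3.20% without, against 2.92% for the other genes. This count used the forward strand of chromosome 19 alone. Inverted copies and copies on other chromosomes were not counted, so it cannot show how well reads map.

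Origins were spread unevenly over the clusters. Runs of at least 5 ZNF genes with no gap above 250 kb formed 12 clusters with 226 of the 240 genes. The cluster from ZNF737 to ZNF254 (chr19:20535825-24129968) was nearly empty: 1 of its 29 ZNF genes had a WT origin, and it had 1.31 WT origins per Mb at a median gene GC content of 39.2%. At the other end, all 7 genes of the cluster from ZNF628 to ZNF581 (chr19:55476617-55645623) had a WT origin, at 245 per Mb and 57.9% GC. The largest number of WT origins, 39, lay in the cluster from ZNF175 to ZNF331, in 22 of its 39 genes. Its number was 29 in ORC1Δ, 34 in ORC2Δ, and 38 in ORC5Δ. Of the 14 ZNF genes outside clusters, 11 had a WT origin.

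The other genes that lie within the clusters were likewise poor in origins. They can include zinc finger genes whose symbols fall outside the rule, which were not separated here. Of these 96 genes, 39 (40.6%, 30.7–51.1%) had a WT origin, at 22.8 per Mb, against 71.1% (68.4–73.8%) of the 1140 genes elsewhere, at 69.1 per Mb.

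The cluster from ZNF264 to ZNF446, the last before the end of the long arm, had 6 origins in its 41 ZNF genes in WT and 6 in ORC1Δ, but 14 in ORC2Δ and 17 in ORC5Δ. Its genes with an origin numbered 4, 6, 12, and 14. Over all lists, ORC2Δ held 37813 origins and ORC5Δ 41332, against 30197 in WT. The reads of the same cluster moved less than the listings. Its 16 origins in the ORC2Δ table had a median log2 fold of −0.16, from 1955 WT reads and 2141 ORC2Δ reads, and its 19 in the ORC5Δ table had 0.02, from 2071 and 2674. None of them passed 1.5-fold in RPM, the reads of an origin relative to all reads of the line in the table.

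**Figure D2:**
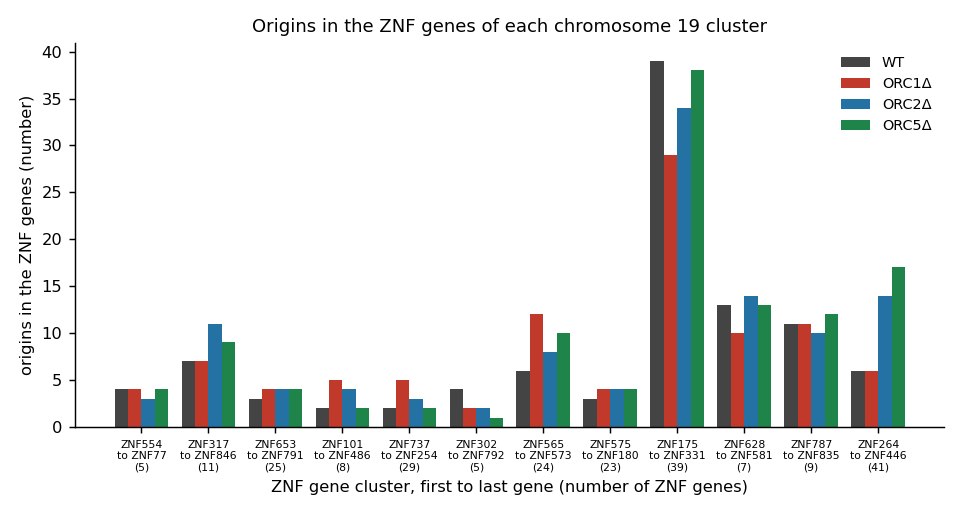
Number of origins in the ZNF genes of each of the 12 clusters, in chromosome order, with a bar per line and the number of ZNF genes in parentheses. The cluster from ZNF175 to ZNF331 holds the most in every line (29 to 39), and that from ZNF264 to ZNF446 holds 6 in WT and ORC1Δ, 14 in ORC2Δ, and 17 in ORC5Δ.

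Single genes showed the same spread. ZNF536, a neuronal repressor whose gene body spans 488.7 kb, had the most WT origins (10), followed by ZNF83 with 6, ZNF865 and ZNF444 with 4 each, and ZNF787, ZNF160, ZNF665, and ZNF333 with 3 each. Among 14 genes chosen for a known role, 8 had no origin in any list: ZNF85, ZNF43, and ZNF208, which are KRAB genes of the nearly empty cluster, ZNF382, ZNF224, which represses the aldolase A gene, ZNF350, a partner of BRCA1, ZNF507, and ZNF8. ZNF91, which represses SVA retrotransposons, lies in the same nearly empty cluster and was the 1 gene there with a WT origin. It had 2, beside 3, 3, and 2 in ORC1Δ, ORC2Δ, and ORC5Δ, and ZNF675 was the other gene of the cluster with an origin in any list, with 2 in ORC1Δ. The deepest ZNF91 origin had 272 WT and 202 ORC1Δ reads (log2 fold −0.49, −0.76 to −0.22), and 272 and 291 with ORC2Δ (−0.14, −0.38 to 0.11). ZNF160, with 4 origins in ORC1Δ, had 1056 and 1015 reads (−0.12, −0.24 to 0.01). ZNF93, which represses LINE-1 elements, had none in WT or ORC5Δ and 2 in both ORC1Δ and ORC2Δ. Of these, 1 had 277 WT and 304 ORC1Δ reads (log2 fold 0.07, −0.17 to 0.31) and the other 100 and 140 (0.43, 0.04–0.81), and both were in the table through the ORC1Δ list alone.

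ZNF274, which recruits the histone methyltransferase SETDB1 to zinc finger genes, had 1 origin at its start in ORC2Δ and ORC5Δ and none in WT or ORC1Δ. WT nevertheless had 374 reads in that interval, beside 457 in ORC2Δ, where the median ZNF origin of the table had 139 WT reads. An absence from a list was thus not an absence of reads. The imprinted gene ZNF331 had 2 origins in WT and 2 in ORC5Δ and none in ORC1Δ or ORC2Δ. The one in an exon had 131 WT and 108 ORC1Δ reads (log2 fold −0.34, −0.72 to 0.04) and the one in an intron 140 and 97 (−0.59, −0.98 to −0.21), and both were in that table through the WT list alone.

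Within the genes, WT origins sat at gene starts and in introns. An origin within 500 bp of the annotated start accounted for 39 of the 126 WT ZNF origins, or 31.0% (23.02–39.8%), against 18.9% (17.1–20.7%) of the WT origins of other genes. Introns held 62, or 49.2%, against 45.6%. Away from starts, finger exons held 5, or 3.97% (1.30–9.02%). Coding exons with fewer than 3 finger patterns held 4, or 3.17% (0.872–7.93%). In other genes 28.8% of the WT origins lay in such coding exons and 0 in finger exons. The share at starts was 27.3% in ORC1Δ, 28.2% in ORC2Δ, and 24.7% in ORC5Δ, all within the WT interval.

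Few finger exons held an origin. Counting any overlap, there were 16.2 WT origins per Mb of finger exon and 16.2 per Mb of ZNF territory. Such a count credits short exons with origins that lie mostly outside them. In ORC1Δ, ORC2Δ, and ORC5Δ the finger exons had 5.39, 18.9, and 13.5 per Mb, against 16.4, 18.2, and 19.3 in ZNF territory. An origin overlapped 6 of the 236 finger exons in WT and 2 in ORC1Δ, while ORC2Δ had 6 and ORC5Δ 5. All of these lay among the 23 exons with 55% GC or more, a limit set after the values were seen. None lay in the 213 exons below it, which allows a share of up to about 1.41%. This is an approximate upper limit, 3 over 213, and not an exact interval. The 6 WT exons were those of ZNF575, ZNF628, ZNF579, ZNF865, ZNF784, and ZNF444. The WT origins that overlap those of ZNF579, ZNF784, and ZNF444 lie mostly outside the exon. The linker of ZNF628 printed above, of 76.2% GC, comes from one of them, while the words that the family repeats have 33.3% and 41.7% GC.

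WT ZNF origins resembled other origins in strand composition. Their median absolute GC skew, the size of G minus C over G plus C, was 0.351 (0.307–0.373), against 0.345 in other genes of the chromosome and 0.341 over all WT origins. Their median GC content was 56.2% (54.2–57.7%), below the 60.4% of other genes and above the 54.8% of all WT origins. The median width was 638.5 bp (557–692 bp), against 572 bp and 525 bp. At least 4 runs of 3 or more G, with loops of 1 to 7 bases on either strand, were found in 57.1% (48.0–65.9%), against 72.8% of the WT origins of other genes. In ORC1Δ the median absolute GC skew of the ZNF origins was 0.409 (0.387–0.449), against 0.378 for other genes and 0.382 over all ORC1Δ origins.

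WT origins of ZNF genes recurred in the knockout lists at shares near those of all WT origins, and below those of other chromosome 19 genes in ORC2Δ and ORC5Δ. Of the 126 WT ZNF origins, 75.4% (66.9–82.6%) had a counterpart in ORC1Δ, 77.0% (68.6–84.0%) in ORC2Δ, and 77.0% in ORC5Δ. Other genes had 80.0%, 89.8% (88.3–91.2%), and 93.5% (92.3–94.6%), so the intervals overlapped for ORC1Δ and stood apart for ORC2Δ and ORC5Δ. Over all WT origins the shares were 71.1%, 78.6%, and 82.6%, each within the interval of the ZNF share. All 3 knockout lists held 62.7% (53.6–71.1%) of the WT ZNF origins and no knockout list held 13 of them, or 10.3% (5.61–16.997%). Over all WT origins these shares were 60.4% and 8.17%, within the ZNF intervals, and in other genes of the chromosome 76.5% and 3.63%.

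Of the genes, ZNF567, ZNF28, and ZNF813 had an origin in WT and in no knockout line, and ZNF850 and ZNF17 had 1 in every knockout line and not in WT. At the start of ZNF850, 64 WT reads stood against 90 ORC1Δ reads, a log2 fold of 0.43 (−0.05 to 0.92). The origin at the start of ZNF567 had 127 reads in WT and 118 in ORC1Δ, 123 in ORC2Δ, and 127 in ORC5Δ, with log2 folds of −0.17, −0.28, and −0.31. The interval of each of these folds held 0. ZNF17 had 140 WT and 170 ORC1Δ reads, and in ORC5Δ 152 and 235, a log2 fold of 0.32 (0.02–0.62).

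Read counts were given for the joined origins of WT and 1 knockout line at a time. The tables held 157, 170, and 176 origins of ZNF genes for ORC1Δ, ORC2Δ, and ORC5Δ, of 42162, 44174, and 46467. Each line's reads were scaled to their sum over a table, from 6416892 to 8523971 reads, and every ZNF origin had at least 100 reads in the pair of lines together. The 3 tables share the WT reads, so their values are given side by side.

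As a group, ZNF origins kept their level. ORC1Δ had a median log2 fold of −0.05 (−0.10 to −0.01), ORC2Δ of −0.06 (−0.09 to −0.00), and ORC5Δ of −0.02 (−0.05 to 0.03). The origins of other genes had −0.12 (−0.14 to −0.11), −0.00, and 0.01, and all origins had −0.01, −0.04, and −0.00. Below 0 on this scale means fewer reads in the knockout line. The ORC1Δ median of the ZNF origins changed sign, to 0.01, when reads were scaled to the total of chromosome 19 alone.

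In ORC1Δ, 11 ZNF origins were up and 7 down by at least 1.5-fold in RPM, or 7.01% and 4.46%. Over all origins of the table the shares were 7.04% and 3.95%, and in other genes of the chromosome 4.81% and 5.00%. In ORC2Δ, 4 were up (2.35%) and 7 down (4.12%), against 4.66% and 3.58% over all origins and 3.65% and 2.45% in other genes. In ORC5Δ, 1 was up and 1 down, each 0.568%, against 2.08% and 0.680% over all origins and 1.85% and 0.352% in other genes. The shares of ZNF origins past 1.5-fold were thus near those of all origins, which lay within the exact intervals of the ZNF shares (3.55–12.2% for up in ORC1Δ, 0.645–5.91% in ORC2Δ, and 0.0144–3.12% in ORC5Δ).

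Origins whose counting interval excluded 0 also had shares near those of all origins, but in ORC1Δ not near those of other genes. In ORC1Δ 23 ZNF origins were higher by this measure (14.6%) and 26 lower (16.6%), against 14.6% and 14.5% of all origins. In ORC2Δ they were 16 (9.41%) and 17, against 10.1% and 11.2%, and in ORC5Δ 11 (6.25%) and 10 (5.68%), against 5.84% and 4.76%. Among the origins of other genes of the chromosome, 9.71% were higher and 23.99% lower in ORC1Δ. These shares were 12.6% and 9.13% in ORC2Δ, and 7.25% and 4.13% in ORC5Δ.

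**Figure D3:**
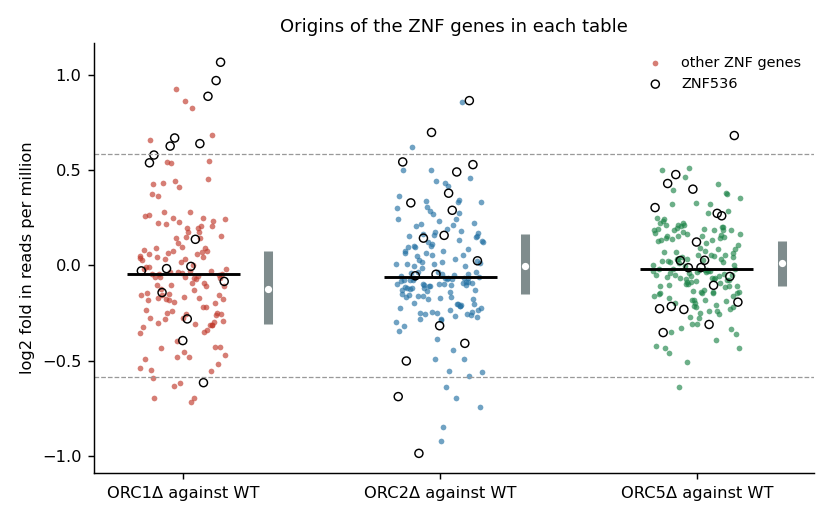
Log2 fold in RPM of each ZNF origin (points; open circles are ZNF536) in the 3 tables, with the ZNF median (black line), the quartile range and median of the other genes of chromosome 19 (grey bar, white dot), and 1.5-fold (dashed). In ORC1Δ, 6 of the 11 points above the upper dashed line are ZNF536 origins, and the ZNF median is −0.05.

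Of the 11 origins up in ORC1Δ, 6 lay in introns of ZNF536. The WT list had 10 origins in this gene and the ORC1Δ, ORC2Δ, and ORC5Δ lists had 14, 15, and 19. Of its 17 origins in the ORC1Δ table, 7 were on the ORC1Δ list only, and these included 5 of the 6 that were up. The sixth was on both lists. Without ZNF536, 5 of 140 ZNF origins were up in ORC1Δ (3.57%) and 2 of 152 in ORC2Δ (1.32%).

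The ZNF536 origins divided by GC skew. In ORC1Δ, 10 reached an absolute skew of 0.6. Their median log2 fold was 0.63, and they held all 6 that were up. The other 7 had a median of −0.14, with none up and 1 down. Most ZNF536 origins on the ORC1Δ list only reached this skew, and all 3 on the WT list only stayed under it. The skew classes thus follow in part the list through which an origin joined the table. In ORC2Δ the medians were 0.49 in 9 origins and −0.32 in 9, and in ORC5Δ 0.27 in 9 and −0.06 in 11. Outside ZNF536, 5 ZNF origins of the ORC1Δ table reached a skew of 0.6, with a median of 0.07 and none up, and in ORC2Δ 4 did, with a median of 0.15 and 1 up, the start of ZNF114. In the other genes of the chromosome, 148 origins reached it in the ORC1Δ table, with a median of 0.51 (0.43–0.62) and 69 up. In ORC2Δ there were 145, with a median of 0.46 and 51 up, and in ORC5Δ 139, with a median of 0.30 and 29 up.

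**Figure D4:**
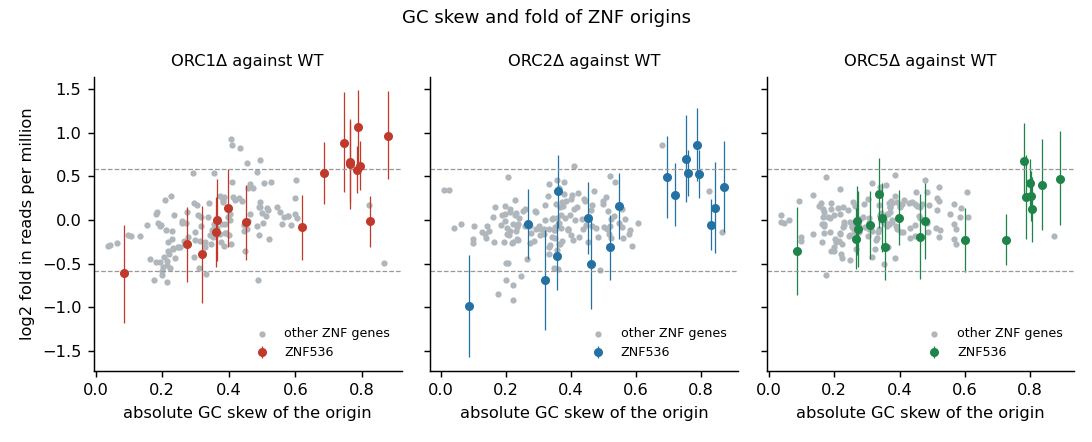
Log2 fold in RPM against the absolute GC skew of each ZNF origin, a panel per table, with ZNF536 in colour (bars are 95% counting intervals), other ZNF genes in grey, and 1.5-fold dashed. In ORC1Δ the ZNF536 origins with a skew of 0.6 or more have a median of 0.63, and the others −0.14. These sets also differ in which lists hold their origins.

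The skew is shown by the most skewed 30 bases of 4 of the 6 ZNF536 origins (hg38, plus strand, in the order of their ORC1Δ fold). Capitals mark G where G prevails on this strand and C where C does.
chr19:30415181-30415210: CCCtCCCCCtCCtCCtCttCtCCCtCCCCC
chr19:30409054-30409083: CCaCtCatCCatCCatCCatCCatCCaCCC
chr19:30609718-30609747: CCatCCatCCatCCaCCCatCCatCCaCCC
chr19:30287233-30287262: GGGtGGaGGGGtGGGtGGGtaGGGtGatGG

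Each of these windows held G on only 1 strand. All 6 whole origins had absolute GC skews from 0.75 to 0.88 at GC contents from 36.8% to 54.0%. Their reads rose from 41–171 in WT to 79–275 in ORC1Δ, and the ranges overlapped since the origins differed in depth.

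The strongest of them, 210 kb into ZNF536 (chr19:30434723-30435549), was the only ZNF origin up in all 3 tables. It had 72 WT reads against 157 in ORC1Δ, 72 against 154 in ORC2Δ, and 71 against 141 in ORC5Δ. The log2 folds were 1.06 (0.65–1.49), 0.86 (0.45–1.29), and 0.68 (0.26–1.11), in all 3 cases with an interval above 0. The origin was on every knockout list and not on the WT list, so it joined each table through the line where it was higher.

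A second ZNF536 origin (chr19:30337791-30338470) had 50 WT reads against 102 in ORC1Δ, 53 against 101 in ORC2Δ, and 47 against 81 in ORC5Δ. It was up in ORC1Δ and ORC2Δ, with log2 folds of 0.97 and 0.70, and its log2 fold of 0.48 (−0.06 to 1.03) in ORC5Δ did not pass. Another (chr19:30314659-30315025), with an absolute skew of 0.09, moved the other way. Its WT reads of 69 stood against 47 in ORC1Δ, 41 in ORC2Δ, and 67 in ORC5Δ, and it was down in ORC1Δ and ORC2Δ (−0.61 and −0.98).

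Outside ZNF536, the origins up in ORC1Δ lay at the starts of ZNF790 and ZNF146 (the latter also in ZNF565), just upstream of ZNF260, and in introns of ZNF675 and ZNF473. ZNF473 encodes a factor of histone pre-mRNA processing. The start of ZNF790, which faces ZNF345, had 48 WT reads against 95 in ORC1Δ (log2 fold 0.92, 0.41–1.46), 52 against 94 in ORC2Δ (0.62, 0.12–1.14), and 43 against 76 in ORC5Δ (0.51, −0.05 to 1.09). Their absolute GC skews, from 0.41 to 0.49, were lower than in ZNF536, and all 11 origins up in ORC1Δ had one of 0.4 or more, as had 62 of the 157 ZNF origins. In ORC2Δ the start of ZNF114 was up, with 54 WT and 115 ORC2Δ reads (0.86, 0.38–1.35). None of these origins outside ZNF536 was on the WT list, so each joined its table through the knockout line where it was higher.

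**Figure D5:**
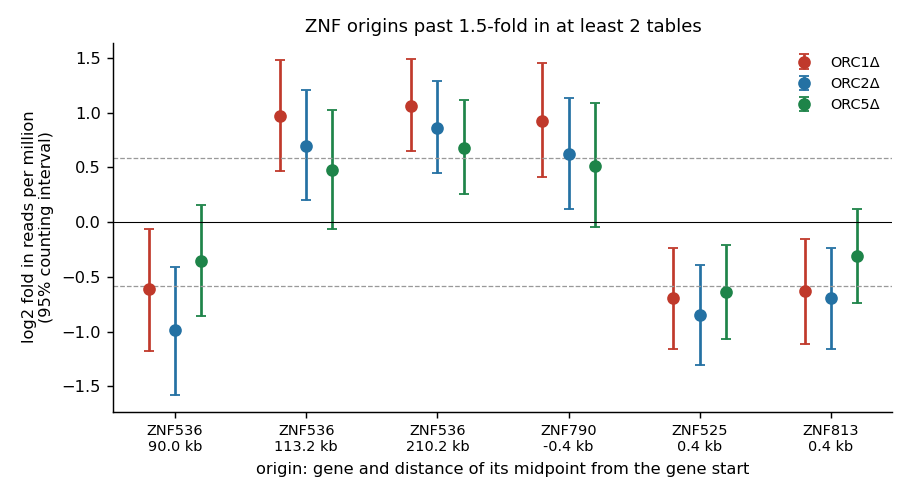
Log2 fold in RPM, with 95% counting intervals, of the 6 ZNF origins past 1.5-fold in the same direction in at least 2 tables, named by gene and distance from the gene start, with a colour per line and 1.5-fold dashed. Points lie on the same side of 0 in all 3 tables for each origin. This follows in part from the choice by direction in at least 2 tables and from the shared WT reads.

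The origins down in ORC1Δ were GC-rich. All 7 had GC contents from 60.8% to 71.6% and absolute GC skews from 0.09 to 0.49. Over the 32 ZNF origins of that table with 60% GC or more the median log2 fold was −0.28 (−0.45 to −0.16), and over the 44 under 50% it was 0.15 (0.02–0.22). In other genes these medians were −0.24 and 0.35. The 7 origins down in ORC2Δ ranged more widely, from 49.6% to 64.4% GC. When the running median over GC content was subtracted, 7 ZNF origins were up and 2 down in ORC1Δ, and with scaling to chromosome 19 alone 3 were down.

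The start of ZNF525 (chr19:53365822-53366342) was the only ZNF origin down in all 3 tables. It had 104 WT reads in each, against 67 in ORC1Δ, 68 in ORC2Δ, and 83 in ORC5Δ. The log2 folds were −0.69 (−1.16 to −0.24), −0.85 (−1.31 to −0.39), and −0.63 (−1.07 to −0.20), each with an interval below 0. This origin was on the WT list alone, so it joined each table through the line where it was higher. The 3 folds also share their WT reads. The start of ZNF813, in the same cluster, was also on the WT list alone. It had 95 WT reads against 64, 69, and 95. It was down in ORC1Δ (−0.63) and ORC2Δ (−0.69) but not in ORC5Δ (−0.31, −0.74 to 0.12). The most skewed 30 bases of both origins are given for comparison with ZNF536 (hg38, plus strand, capitals for C).
ZNF525, chr19:53366201-53366230: CgCCgtCgCCCCCCaCgtCCCtCCtCatgC
ZNF813, chr19:53468220-53468249: CCCCCCCCCCCCCaCCtCCCtCCtCCtgCC

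These windows hold C-rich stretches too, but within origins of 61.4% and 64.4% GC whose whole absolute skews were 0.18 and 0.20.

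Of the 7 origins down in ORC1Δ, 3 lay on finger exons. The origin on that of ZNF865 had 269 WT reads against 171 in ORC1Δ (log2 fold −0.71, −0.999 to −0.43), the one on ZNF575 had 287 against 195 (−0.62, −0.89 to −0.35), and the one that reaches into that of ZNF444, which has a SCAN domain, had 118 against 76 (−0.70, −1.13 to −0.27). The other origin down, in an intron of ZNF331, had 140 against 97 (−0.59). In ORC5Δ the finger exon origins had log2 folds of −0.24, −0.21, and −0.18, with intervals that held 0. An intron origin of ZNF444 went the other way, with 239 WT reads against 338 in ORC1Δ (0.44, 0.20–0.68), and its log2 fold was 0.50 in ORC2Δ and 0.38 in ORC5Δ. Over the 5 origins of the ORC1Δ table placed on finger exons the median log2 fold was −0.62. In ORC2Δ the median of 6 such origins was −0.07 (−0.58 to 0.44), and in ORC5Δ that of 5 was −0.18, with 0 down in either. The members of these sets differ, since origin borders differ between lines. A ZNF444 origin, for example, reaches the finger exon in the ORC2Δ list but is an intron origin in the WT and ORC1Δ lists. A start origin of ZNF579 that reaches into its finger exon but lies mostly outside it had 446 WT reads against 541 in ORC1Δ (0.22, 0.03–0.40). With the running median over GC content subtracted, the ORC1Δ values of ZNF865 and ZNF575 were −0.36 and −0.28, short of 1.5-fold, and that of ZNF579 was 0.46.

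In ORC2Δ the origins down were those of ZNF525, ZNF813, and the ZNF536 intron above, a second ZNF536 intron, introns of ZNF473 and ZNF28, and the start of ZNF836. The ZNF473 intron had 108 WT reads against 67 (log2 fold −0.92, −1.38 to −0.47). In ORC5Δ the next lowest folds after ZNF525 were short of 1.5-fold, in an intron of ZNF627 with 132 WT and 115 ORC5Δ reads (−0.51, −0.88 to −0.14) and at the start of ZNF836 with 143 and 129 (−0.46, −0.81 to −0.10). The highest after ZNF536 and ZNF790 was the start of ZNF561, with 92 WT and 161 ORC5Δ reads (0.50, 0.12–0.88). None of the 202 ZNF loci was up in 1 table and down in another, but only 23 were called in any table. Only 136 of the loci were in all 3 tables, and the tables share their WT reads. No such count over all origins stands beside it, so it does not measure agreement between the lines.

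Listing and reads were related in part by construction, since an origin joins a table by being listed. In the ORC1Δ table, 31 ZNF origins were on the WT list only, and 25 of them stayed within 1.5-fold. Another 31 were on the ORC1Δ list only, and 21 stayed within it. Of the 11 origins up in ORC1Δ, 10 were on the ORC1Δ list only, and of the 7 down, 6 were on the WT list only. In ORC2Δ all 4 origins up were on the ORC2Δ list only, and all 7 down were on the WT list only. Calls and their intervals are thus tied to the line through which an origin joined. Among the 51 ZNF origins that only the ORC5Δ list held, 50 stayed within 1.5-fold, with medians of 88 WT reads and 118 ORC5Δ reads.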

How the data were processed

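The authors aligned SNS-seq reads to hg38 and kept peaks that MACS2 had found in both replicates of a line. Per the labels' processing notes, Trim Galore 0.6.4, Bowtie, and bedtools were also used (GRCh38). The 4 deposited lists hold positions only. The 3 deposited tables hold counts of reads, whole numbers without normalization, for WT and 1 knockout line in their joined origins, with replicates merged. The counting tool and the handling of duplicate reads are not given in the sources used here, and reads are not independent molecules.

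Counts were scaled to RPM by the line's total in the table, with all contigs. Origins were called at 1.5-fold, the threshold of the study's methods, with no filter or pseudocount. Single folds have exact Clopper-Pearson intervals, shares exact binomial ones unless stated otherwise, and medians order-statistic ones. No test was run. A ZNF gene whose symbol ends in a letter is among the other genes, as are ZFP, ZSCAN, ZIM, and ZIK genes. Gene territories, GC content, finger patterns, and words came from GENCODE release 44 and hg38, promoters from RefSeq. An origin in several ZNF genes was assigned to 1 by position (start, finger exon, other coding exon, other exon, intron, upstream). Named were the 8 genes with most WT origins, origins past 1.5-fold in all tables, the 3 highest and 3 lowest folds per table, a list of 14 role genes, genes listed in WT only or in every knockout line only, and the 3 deepest origins on finger exons. Other genes were named after their values were seen. The windows of 2 ZNF536 origins are not reported here. The members, lists, and tests were chosen with earlier results of these data known. Calculations used Python 3.11.15, pandas 2.3.3, scipy 1.17.1, and, for TMM factors as an alternative, edgeR 4.0.16, and were checked on simulated counts.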

Additional observations from a re-analysis of the deposited data

How the results depend on the processing

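Of 171 values recomputed for the shares, medians, densities, and counts of the report, 150 stayed within 1.5 times (counts) or within the interval of the value, including all shares of genes and of shared origins, the density, and the sequence medians. Scaling to chromosome 19 alone turned the ORC1Δ median from −0.05 to 0.0050, moved the ORC2Δ median to −0.10, and left 3 origins down in ORC1Δ. Subtracting the running median over GC content left 7 up and 2 down in ORC1Δ. At 2-fold, 1 origin was up and 0 down in ORC1Δ, and 0 either way in ORC2Δ and ORC5Δ. At a log2 fold of 0.32, 23 were up and 24 down in ORC1Δ, 20 and 17 in ORC2Δ, and 13 and 12 in ORC5Δ. With the ZFP, ZSCAN, ZIM, and ZIK genes added, 2 were up in ORC5Δ. Without ZNF536, a choice made after seeing the data, 5 were up in ORC1Δ, 2 in ORC2Δ, and 0 in ORC5Δ. Median-of-ratios and TMM scaling moved folds by at most 0.04 and these counts by no more than 1.5 times, and all symbols that begin with ZNF, also chosen later, moved no count by more than that. Apart from the changed thresholds and members, the cause was not tested. No paired analysis was possible because the deposited tables merge the replicates, and for the same reason no replicate could be left out. Depth limits single origins: at the ORC2Δ table's median of 139 WT reads, many smaller folds have a counting interval that holds 0. This limit lies below 1.5-fold. In that table the interval of 16 ZNF origins lay above 0 and that of 17 below, while 4 were up and 7 down by 1.5-fold.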
